A study of Homo sapiens with 9 samples.

Results

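The genes described here are the collagens, every gene on the array whose name is written COL, a number, A and a number, such as COL12A1. There were 44 such genes, read by 64 probes, among 43395 genes and 58201 probes in all, and 21 of them, read by 26 probes, were bright enough to be tested, among 20106 genes tested. RNA of 3 stable lines of T47D, a luminal human breast cancer cell line, was measured on one-color microarrays, with 3 arrays of each line. T47D-VC1 was made with the vector alone (pTARGET) and served as the control, T47D-PA6 expressed the full-length form of the long noncoding RNA PTH-AS from that vector, and T47D-PA5 expressed an incomplete PTH-AS. All 3 lines were transfected and selected, with G418. PA5 and PA6 are each a single line picked for high expression of the insert, so an effect of the insert and a difference between picked lines cannot be told apart. Neither the labels nor the methods say whether the 3 arrays of a line came from separate cultures, so p-values measure the spread between these arrays only, which may be technical.

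Collagens are secreted proteins of several chains that wind into a triple helix, in which glycine recurs at regular steps along each chain, and they give the extracellular matrix its strength. Fibril-forming collagens build the fibers, FACIT collagens bind to the surface of those fibers, network collagens make up the basement membrane beneath epithelia, and other types form beaded filaments, anchoring fibrils or membrane-bound proteins. In breast tumors most of the fibrillar collagen is made by fibroblasts, and carcinoma cells make a smaller set, in which basement membrane and fiber-associated types are common.

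The probes carry the measurement, and they are shown here for the 3 collagen genes whose 2 tested probes bear most on the results. Each probe is 60 bases long, is written 5′ to 3′ and lies in the build named in the files, hg19. The 2 COL12A1 probes lie on the minus strand at chr6:75794289-75794348 and chr6:75822928-75822987, with starts 28639 bases apart. The COL16A1 probes lie on the minus strand at chr1:32118175-32118234 and chr1:32148536-32148595, 30361 bases apart. The COL27A1 probes lie on the plus strand at chr9:117072895-117072954 and chr9:117073738-117073797, 843 bases apart. The dimmer COL16A1 probe holds a repeat of glycine codons in an open reading frame, as a triple helix has, and is given whole. Its 5 glycine codons (GGN) are in capitals, each 9 bases after the last. The place of the probe in the protein was not worked out. A run of at least 4 such codons in an open reading frame was found in 3 of the 64 collagen probes, and in 1 of the 26 tested. Of the other probes the first 30 bases are given.
COL12A1, brighter probe: agtgcatcaacgggatacagttccatattg
COL12A1, dimmer probe: gcgaggtgcaaactgttacatttgacacag
COL16A1, brighter probe: tggatgaaagactccgttgggaataaatgg
COL16A1, dimmer probe: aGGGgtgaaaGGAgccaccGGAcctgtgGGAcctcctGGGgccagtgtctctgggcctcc
COL27A1, brighter probe: atcatcagtgtggacaacctccctcctgcc
COL27A1, dimmer probe: gacaaagtttggggaatttttgaattttcc

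Values are signals in arbitrary units after quantile normalization, and means are taken on the log2 scale. Testing was limited to probes that all 3 arrays of some line showed well above background, and a gene was read from its brightest tested probe. A gene was called when its adjusted p-value in limma, over all genes tested, was under 0.05. The detection floor, the lowest signal counted as well above background, ranged from 9.59 to 15.2 between arrays, and 44% to 48% of probes were above background on an array. The 3 first replicates shared slide 1 and the earlier scan run, and the other 6 arrays lay on slides 2 and 3. First replicates stood apart from the others: over all genes tested, the median difference between replicate 1 and the other arrays of its line was 0.212 to 0.259 on the log2 scale, against 0.0853 to 0.108 between replicates 2 and 3. Over the collagen genes tested these differences were 0.275 to 0.335 and 0.093 to 0.162. Every array showed all 9 markers of luminal breast epithelium well above background. Of 7 fibroblast markers, 1 (THY1) was above background on all 3 arrays of each line, and of 4 endothelial markers 2 were. Of 3 leukocyte markers PTPRC and CD14 were above background on every array and CD3E on none, and the summed signal was 68.5 to 82.4 in T47D-VC1, 129.9 to 159 in T47D-PA5 and 129 to 238 in T47D-PA6. CD14 rose in T47D-PA6 over T47D-VC1 (log2 fold change 1.80, SE 0.29, adjusted p = 0.00821, limma), and PTPRC was not called. Of 4 myoepithelial markers ACTA2 was above background on every array and KRT5 and TP63 on none. KRT14 was above background on 0 arrays of T47D-VC1, 1 of T47D-PA5 and 2 of T47D-PA6. The summed signal of the 4 was 385 to 839 in T47D-VC1, 878 to 939 in T47D-PA5 and 986 to 1448 in T47D-PA6. ACTA2 gave 1.05 in T47D-PA6 over T47D-VC1 (SE 0.29, adjusted p = 0.0538). PGR, the progesterone receptor of the luminal list, fell in T47D-PA6 over T47D-VC1 by 1.07 on the log2 scale (SE 0.17, adjusted p = 0.00724), and the other 8 luminal markers were not called there. The part of these markers in the collagen differences was not tested.

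The signal was bright enough for testing in 21 of the 44 collagen genes, beside 20106 of the 43395 genes on the array. In T47D-VC1, 21 of the 44 were well above background on all 3 arrays, 5 on some arrays and 18 on none. The counts were 20, 4 and 20 in T47D-PA5, and 18, 7 and 19 in T47D-PA6. The tested genes short of 3 arrays were COL28A1 in T47D-PA5, and COL20A1, COL24A1 and COL28A1 in T47D-PA6. Their means in T47D-PA6 were 12.85, 15.39 and 16.28, close to the detection floor, so these counts do not show fewer collagens expressed there. Of the fibril-forming type, COL1A2, the partner chain of COL1A1 in type I collagen, COL3A1, the chain of type III collagen, COL2A1, COL5A3 and COL11A1 were not tested. Of the FACIT and related type COL9A1, COL14A1, COL19A1 and COL22A1 were not tested. The same held for COL4A3 and COL4A4 of the basement membrane, for COL6A2, COL6A3, COL6A5 and COL6A6 of the beaded filaments, for COL8A1 and COL8A2 of the short-chain type, for the 4 transmembrane collagens COL13A1, COL17A1, COL23A1 and COL25A1, for COL15A1 and for COL26A1. A single probe read 29 of the 44 genes, so the absence of a signal concerns that probe's stretch of the transcript.

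**Figure D1:**
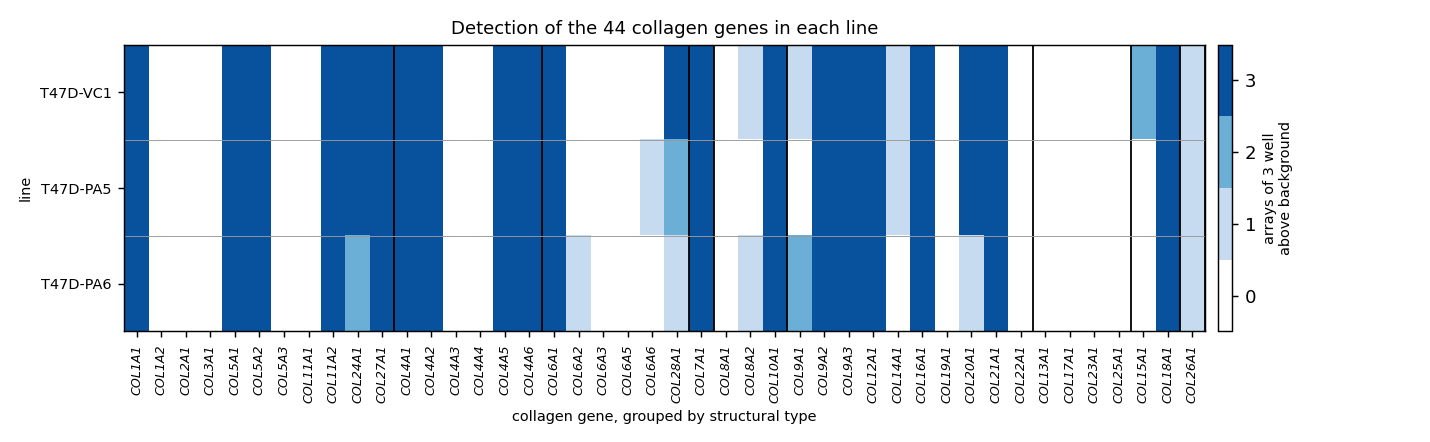
Number of arrays, of 3 in each line, on which the probe read for each of the 44 collagen genes was well above background. Genes stand along the horizontal axis and vertical lines divide the structural types; all 4 transmembrane collagens are white in every line, and 18 to 21 genes a line have the darkest shade.

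Against T47D-VC1, T47D-PA6 had 5 of the 21 collagen genes tested higher and 2 lower. The genes that rose were COL6A1, COL9A3, COL16A1, COL18A1 and COL21A1, and those that fell were COL12A1 and COL1A1. The share called over all genes tested was 4.69% higher and 5.34% lower. Against the same control, T47D-PA5 had 4 collagen genes higher (COL9A3, COL16A1, COL18A1 and COL21A1), against 1.37% of all genes, and 0 lower in limma, against 0.298%. At an unadjusted p-value under 0.05 limma gave 6 higher and 1 lower in that comparison, where 8.7% of all genes were higher and 6.88% lower, and the methods' t-test called 0 after adjustment. The study's methods name an unpaired t-test for its data in general and define changes on the arrays by fold limits alone. Its use on the arrays, with adjustment, was added here. Between the lines with an insert, COL5A2 and COL12A1 were lower in T47D-PA6 than in T47D-PA5, 2 of 21 against 6.06% of all genes, and 0 were higher in limma, against 3.65%. At an unadjusted p-value under 0.05, 1 was higher, against 10.4% of all genes, and the methods' t-test called 0. In T47D-PA6 over T47D-VC1 that t-test called COL18A1 alone. The PA6 and PA5 comparisons with T47D-VC1 share their control arrays.

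Counted as the study's methods define a change, by a ratio to the control above 2 or below 0.6 with no test, 4 collagen genes were up in T47D-PA6 (COL6A1, COL16A1, COL18A1 and COL21A1) and 1 was down (COL12A1). Over all genes tested 3.47% were up and 4.17% down. In T47D-PA5, 4 were up (COL9A3, COL16A1, COL18A1 and COL21A1), against 2.17%, and 1 was down (COL12A1), against 1.76%. With the tested probes of a gene averaged, COL16A1 no longer passed the limits, and 4 collagen genes passed them in each line. Over the 21 genes the median log2 fold change was 0.02 in T47D-PA6 and 0.09 in T47D-PA5, beside -0.03 for all genes tested in each line.

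**Figure D2:**
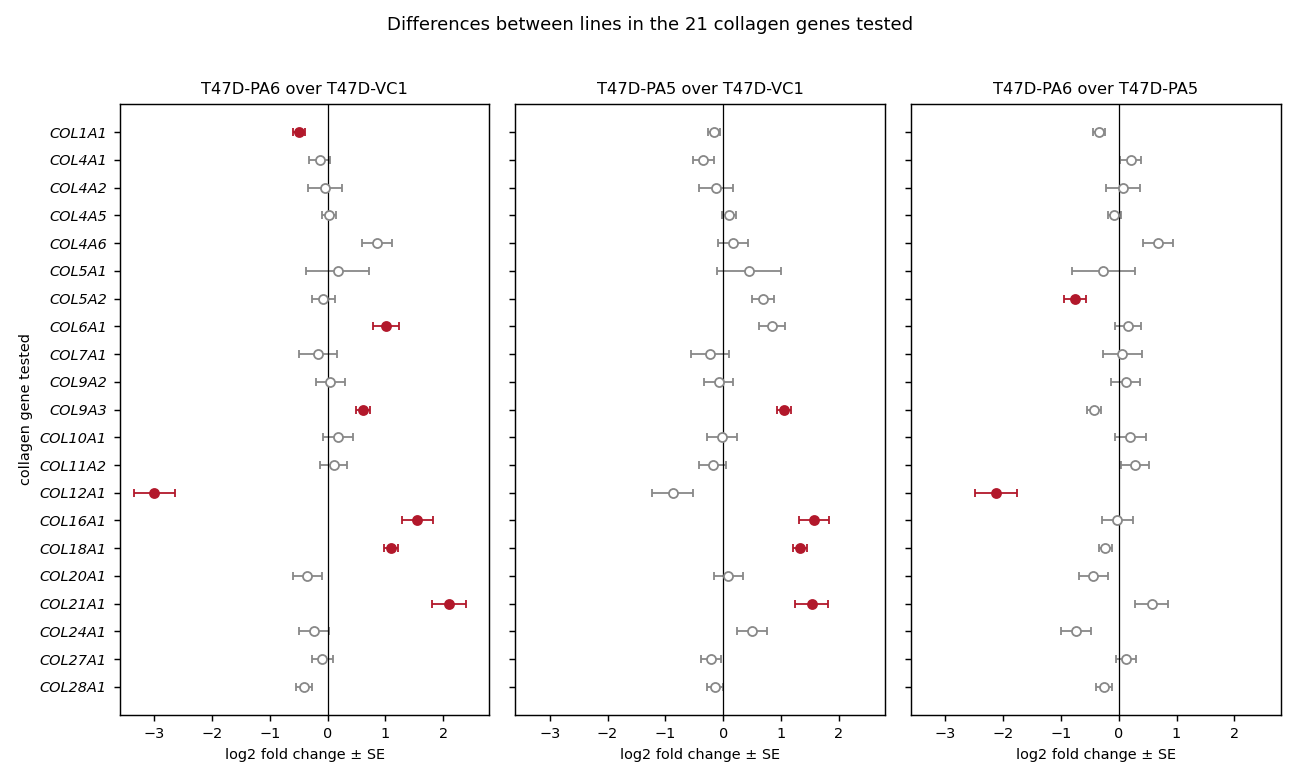
Log2 fold change with its standard error for each of the 21 collagen genes tested, in the 3 comparisons. Filled red points are genes with an adjusted p-value under 0.05 in limma: 7 in T47D-PA6 over T47D-VC1, 4 in T47D-PA5 over T47D-VC1 and 2 in T47D-PA6 over T47D-PA5.

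COL12A1, a FACIT collagen that coats the surface of fibers of type I collagen, gave the largest difference of the 21. Its signal was 16070, 8180 and 8817 on the arrays of T47D-VC1. It was 7272, 5400 and 4779 in T47D-PA5, and 2185, 963 and 1083 in T47D-PA6. Every T47D-PA6 array lay below every T47D-PA5 array, and these below every control array. The mean fell from 10500 in the control to 1316 in T47D-PA6, a difference of -2.997 on the log2 scale (SE 0.36, adjusted p = 0.00247, limma), which is 7.98 times lower. Against T47D-PA5 it fell by 2.12 (SE 0.36, adjusted p = 0.01), 4.35 times lower. In T47D-PA5 the ratio to the control was 0.545 and the log2 fold change -0.88 (SE 0.36, adjusted p = 0.291), which did not pass in the fit without a block and passed with the slide as a block (adjusted p = 0.0337). Within slides the difference between T47D-PA6 and the control was -2.88 on slide 1 and -3.11 on slide 3, and that between T47D-PA5 and the control -1.14, -0.60 and -0.88 on slides 1 to 3. In T47D-PA6 the methods' t-test ended the call, with adjusted p-values of 0.0765 against the control and 0.0811 against T47D-PA5.

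The dimmer COL12A1 probe gave the same order of the lines. It read 814, 563 and 569 in T47D-VC1, 542, 358 and 353 in T47D-PA5, and 146, 52.8 and 65.4 in T47D-PA6. In a fit over all probes tested T47D-PA6 differed from T47D-VC1 on this probe by -3.005 on the log2 scale (SE 0.36, adjusted p = 0.00245), and from T47D-PA5 by -2.36 (SE 0.36, adjusted p = 0.00711). T47D-PA5 over T47D-VC1 gave -0.64 on it (SE 0.36, adjusted p = 0.456), a ratio not below the fold limit of 0.6. The 2 probes thus gave log2 fold changes that differed by less than their standard errors.

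The other FACIT and related collagens called were COL16A1, COL21A1 and COL9A3, and each rose in both lines. COL16A1, a chain found at the edge of the basement membrane and on fine fibrils, read 190, 102 and 108 in T47D-VC1, 305, 420 and 427 in T47D-PA5, and 293, 413 and 432 in T47D-PA6. The lowest array of each line with an insert lay above the highest control array, and the lines with an insert overlapped each other. Over the control it changed by 1.55 on the log2 scale in T47D-PA6 (SE 0.27, adjusted p = 0.0111, limma) and 1.57 in T47D-PA5 (SE 0.27, adjusted p = 0.028). On slide 1 the differences were 0.63 and 0.68, and on slide 3 they were 1.97 and 1.99. The call in T47D-PA6 was lost without replicate 3 of T47D-VC1 or of T47D-PA6 (adjusted p = 0.0503 and 0.0508). The call in T47D-PA5 was lost without replicate 2 or 3 of any of the lines (adjusted p = 0.0524 to 0.125), with the replicate number as a block (0.0563), without a filter on dim probes (0.0948) and with only T47D-PA5 and T47D-VC1 in the fit (0.0579).

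On the dimmer COL16A1 probe, the one with the glycine repeat, the difference was smaller and did not pass. It read 58.7, 71.2 and 62.2 in T47D-VC1, 99.4, 50.5 and 74.98 in T47D-PA5, and 85.6, 73.9 and 78.7 in T47D-PA6. Its log2 fold change was 0.31 in T47D-PA6 (SE 0.22, adjusted p = 0.413 over all probes tested, limma) and 0.18 in T47D-PA5 (SE 0.22, adjusted p = 0.766). All 9 arrays were well above background for this probe, and every T47D-PA6 array lay above every control array, while T47D-PA5 overlapped the control. With the 2 probes averaged, COL16A1 was called in both lines, at 0.93 in T47D-PA6 (adjusted p = 0.00526) and 0.87 in T47D-PA5 (adjusted p = 0.0196) on the log2 scale.

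COL21A1, another fiber-associated chain, had a low signal in every line. It read 60.2, 25.1 and 30.1 in T47D-VC1, 109, 101 and 99.3 in T47D-PA5, and 131, 167 and 163 in T47D-PA6. The 3 lines did not overlap, with T47D-PA6 the highest. The log2 fold change over the control was 2.10 in T47D-PA6 (SE 0.29, adjusted p = 0.00425, limma), 4.29 times higher, and 1.53 in T47D-PA5 (SE 0.29, adjusted p = 0.0406), 2.89 times higher. T47D-PA6 over T47D-PA5 gave 0.57 (SE 0.29, adjusted p = 0.264), which passed without replicate 1 of T47D-VC1 (adjusted p = 0.0293). It also passed with only T47D-PA6 and T47D-PA5 in the fit and in the later scan run alone. Within slide 1 the difference was 1.12 in T47D-PA6 and 0.86 in T47D-PA5, and within slide 3 it was 2.46 and 1.73. The call in T47D-PA5 was lost without replicate 2 or 3 of any line or without replicate 1 of T47D-PA5 (adjusted p = 0.0752 to 0.154), with the replicate number as a block (0.0569), without a filter on dim probes (0.124) and with only T47D-PA5 and T47D-VC1 in the fit (0.0878). With normexp background correction, which adds an offset of 50 to every signal, the COL21A1 values shrank to 1.04 in T47D-PA6 (adjusted p = 8.83e-04) and 0.68 in T47D-PA5 (adjusted p = 0.0198), and both stayed called.

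COL9A3 encodes a chain of type IX collagen, which sits on fibers of cartilage. Its signal was 630, 758 and 706 in T47D-VC1, 1247, 1514 and 1584 in T47D-PA5, and 1114, 1069 and 1027 in T47D-PA6. The 3 lines did not overlap and T47D-PA5 was the highest. Log2 fold changes were 1.05 in T47D-PA5 (SE 0.12, adjusted p = 0.00548, limma) and 0.62 in T47D-PA6 (SE 0.12, adjusted p = 0.0179). T47D-PA6 over T47D-PA5 gave -0.43 (SE 0.12, adjusted p = 0.0629), which passed without replicate 1 of T47D-VC1 (0.0462) or of T47D-PA5 (0.0333). It also passed with normexp background correction (0.0311), with an intensity trend in the prior variance (0.0417) and in the later scan run alone (0.00501). The call in T47D-PA6 was lost without replicate 3 of T47D-VC1 (0.0655), or without replicate 2 (0.0642) or 3 (0.0605) of T47D-PA6. Its partner chain COL9A2 did not pass in any comparison, with log2 fold changes of 0.04 in T47D-PA6 (SE 0.25) and -0.08 in T47D-PA5 (SE 0.25). COL9A2 read 200, 387 and 410 in T47D-VC1, a range that covered all 6 arrays of the lines with an insert. COL20A1, the remaining member of the type tested, read 14.8 to 20.0 in T47D-VC1 and was well above background on 1 array of T47D-PA6. The type held 10 genes, of which 6 were tested.

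**Figure D3:**
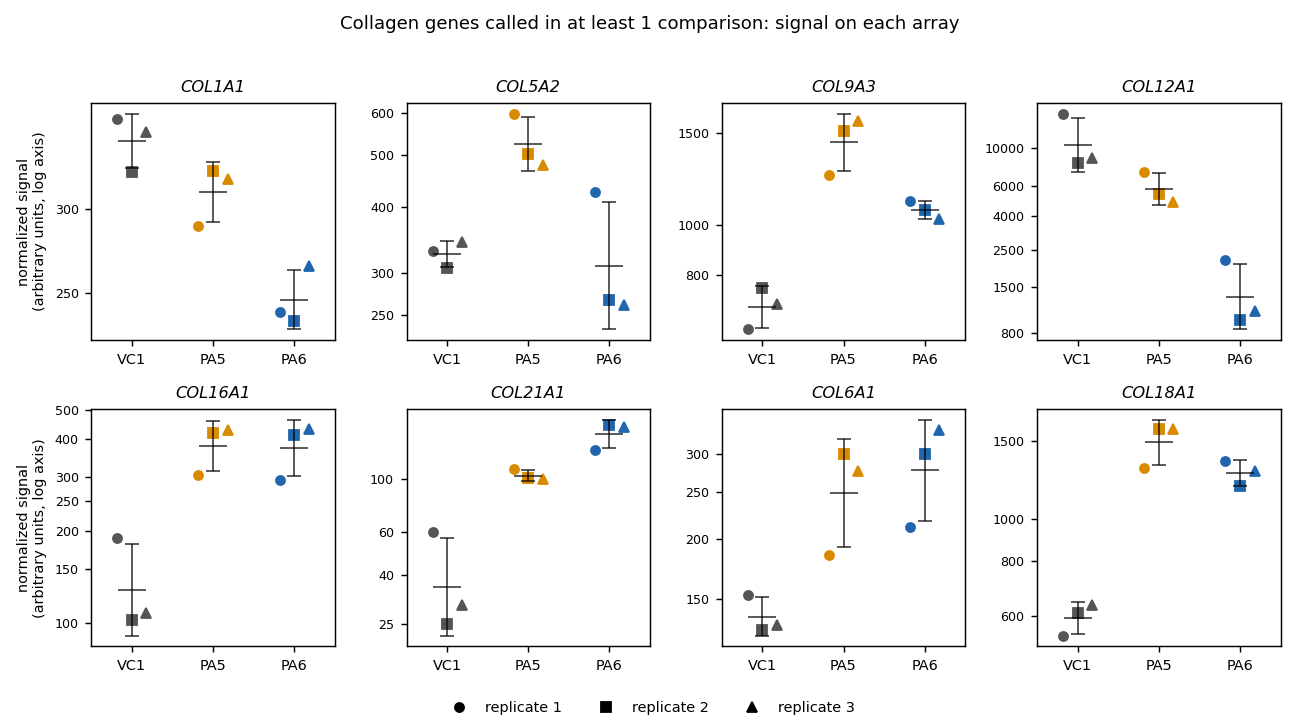
Normalized signal on each of the 9 arrays, on log axes whose ranges differ by gene, for the 8 collagen genes called in at least 1 comparison. Symbols mark the replicate, horizontal bars the mean and vertical bars 1 SD, both taken on the log2 scale; every T47D-PA6 array lies below every control array for COL12A1 and COL1A1 and above it for COL9A3, COL16A1, COL21A1, COL6A1 and COL18A1.

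COL18A1 encodes the collagen of basement membranes whose cleaved end is the angiogenesis inhibitor endostatin. It read 542, 610 and 635 in T47D-VC1, 1303, 1596 and 1595 in T47D-PA5, and 1354, 1185 and 1282 in T47D-PA6. Both lines with an insert lay above the control on every array. On the log2 scale the rise was 1.097 in T47D-PA6 (SE 0.12, adjusted p = 0.00169, limma), 2.14 times higher, and 1.33 in T47D-PA5 (SE 0.12, adjusted p = 0.00233), 2.51 times higher. The difference between the lines with an insert was -0.23 (SE 0.12, adjusted p = 0.279). Within slides it was 1.32 and 0.96 in T47D-PA6, on slides 1 and 3, and 1.27, 1.39 and 1.33 in T47D-PA5 on slides 1 to 3. The call in T47D-PA6 held in all 21 alternatives tried, with adjusted p-values from 4.89e-04 to 0.0323. That in T47D-PA5 held in 20, and the methods' t-test gave an adjusted p of 0.0727. COL15A1, the other member of this type, was not tested.

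COL6A1 encodes a chain of type VI collagen, which forms beaded microfilaments around cells. It read 153, 129 and 132 in T47D-VC1, 185, 301 and 276 in T47D-PA5, and 212, 301 and 336 in T47D-PA6. The control lay below both other lines, which overlapped. On the log2 scale T47D-PA6 was higher by 1.01 (SE 0.22, adjusted p = 0.0272, limma) and T47D-PA5 gave 0.85 (SE 0.22, adjusted p = 0.112). On slide 1 the differences were 0.47 and 0.27, and on slide 3 they were 1.27 and 1.06. The call in T47D-PA6 was lost without replicate 2 or 3 of T47D-VC1 (adjusted p = 0.0876 and 0.0944) or of T47D-PA6 (0.0957 and 0.101), and without a filter on dim probes (0.0774). Without replicate 1 of T47D-PA5 the difference in that line passed (adjusted p = 0.0487). The partner chains COL6A2 and COL6A3 were not tested. COL28A1, a relative of type VI, read 22.0, 19.6 and 23.0 in T47D-VC1, and 19.4, 15.4 and 14.5 in T47D-PA6 with 1 array well above background. For T47D-PA6 over the control this was -0.40 on the log2 scale (SE 0.14, adjusted p = 0.106), and it passed without replicate 1 of T47D-PA6. COL28A1 entered the test through T47D-VC1 alone, where it was highest, so its lower value in T47D-PA6 depends on that filter.

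Of the fibril-forming type 6 of 11 genes were tested. COL1A1, the more abundant chain of type I collagen, read 364, 325 and 354 in T47D-VC1, 289, 326 and 320 in T47D-PA5, and 240, 235 and 265 in T47D-PA6. Every T47D-PA6 array lay below every array of the other lines. It fell by 0.50 on the log2 scale in T47D-PA6 (SE 0.10, adjusted p = 0.0198, limma), to a ratio of 0.709, and the log2 fold change in T47D-PA5 was -0.16 (SE 0.10, adjusted p = 0.508). The difference was -0.60 on slide 1 and -0.51 on slide 3. The call was lost without replicate 3 of T47D-VC1 (adjusted p = 0.0803), without replicate 2 of T47D-PA6 (0.082) and when only T47D-PA6 and T47D-VC1 entered the fit (0.0524).

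COL5A2, a chain of the type V collagen that starts fibers and sets their width, was the collagen gene that differed between the lines with an insert while neither differed from the control in the test. It read 330, 306 and 343 in T47D-VC1, 598, 502 and 479 in T47D-PA5, and 427, 268 and 262 in T47D-PA6. T47D-PA5 lay above both other lines on every array. T47D-PA6 over T47D-PA5 gave -0.76 (SE 0.19, adjusted p = 0.0431, limma), a ratio of 0.592. Over the control the log2 fold change was 0.68 in T47D-PA5 (SE 0.19, adjusted p = 0.13) and -0.07 in T47D-PA6 (SE 0.19, adjusted p = 0.854). Within slides T47D-PA6 over T47D-PA5 was -0.49 on slide 1 and -0.86 on slide 3. The call was lost when any array other than replicate 1 of T47D-PA6 was left out, with adjusted p-values from 0.0517 to 0.154, without a filter on dim probes (0.11) and with only T47D-PA6 and T47D-PA5 in the fit (0.0865). Without replicate 1 of T47D-PA6 the difference between T47D-PA5 and the control passed (adjusted p = 0.0243). The fibroblast marker THY1 read 575, 151 and 200 in T47D-PA5, 130, 94.9 and 95.1 in T47D-VC1 and 93.0, 46.4 and 59.3 in T47D-PA6. THY1 was lower in T47D-PA6 than in T47D-PA5 (log2 fold change -2.03, SE 0.47, adjusted p = 0.0317, limma), and T47D-PA5 over T47D-VC1 gave 1.30 (SE 0.47, adjusted p = 0.226), which did not pass. The summed signal of the 7 fibroblast markers was 184 to 600 in T47D-PA5, 114 to 157 in T47D-VC1 and 68.9 to 142 in T47D-PA6, and none of PDGFRA, PDGFRB, DCN, LUM, POSTN and FAP was above background on all 3 arrays of a line. Its part in the COL5A2 difference was not tested.

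**Figure D4:**
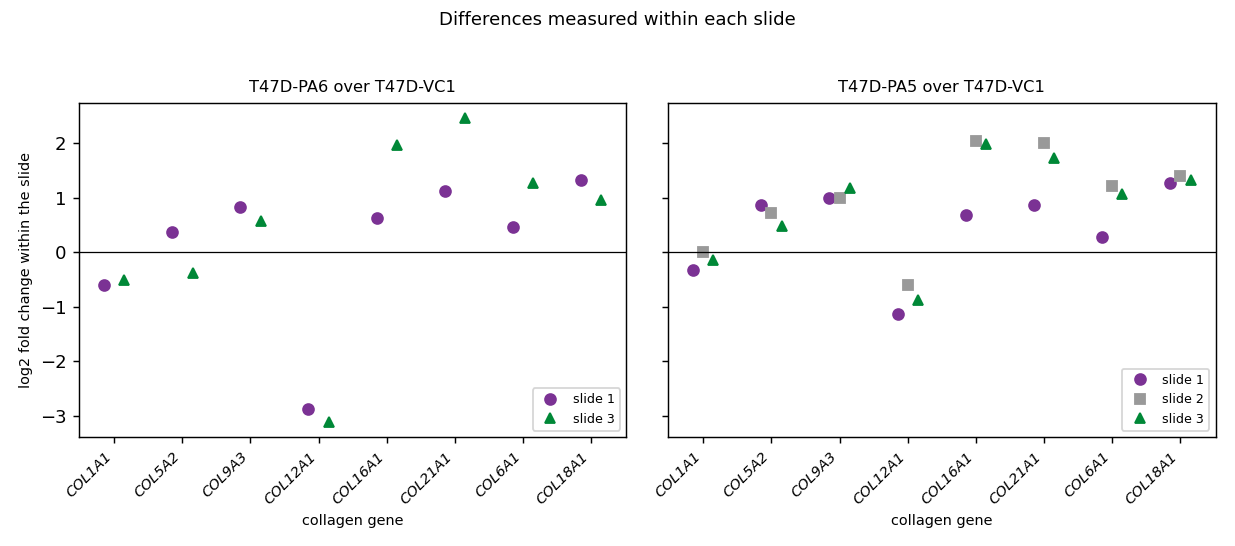
Log2 fold change within each slide for the 8 collagen genes called in at least 1 comparison, T47D-PA6 over T47D-VC1 on the left and T47D-PA5 over T47D-VC1 on the right. Slide 2 held no T47D-PA6 array, and on slide 3 the T47D-PA6 value is a mean of 2 arrays; COL16A1, COL21A1 and COL6A1 differed less on slide 1 than on slide 3, while COL12A1 and COL18A1 kept their direction at a similar size.

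COL27A1, a fibril-forming collagen of cartilage, was read differently by its 2 tested probes. The brighter probe read 245, 284 and 244 in T47D-VC1, 259, 199 and 213 in T47D-PA5, and 311, 206 and 221 in T47D-PA6, so that the lines overlapped. Between T47D-PA6 and the control its log2 fold change was -0.09 (SE 0.18, adjusted p = 0.793, limma). The dimmer probe, farther along the transcript, read 89.1, 43.8 and 47.6 in T47D-VC1, 99.7, 145 and 133 in T47D-PA5, and 118, 260 and 251 in T47D-PA6. There the control lay below both other lines, by 1.79 on the log2 scale for T47D-PA6 (SE 0.36, adjusted p = 0.0191 over all probes tested) and by 1.12 for T47D-PA5 (SE 0.36, adjusted p = 0.181). When the probes of a gene were averaged, COL27A1 was called higher in T47D-PA6, and the count of collagen genes called there became 8. Which transcripts the probes read apart was not tested. The 3 tested probes of COL11A2, a chain of type XI collagen, gave log2 fold changes in T47D-PA6 between -0.19 and 0.15, and none passed.

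**Figure D5:**
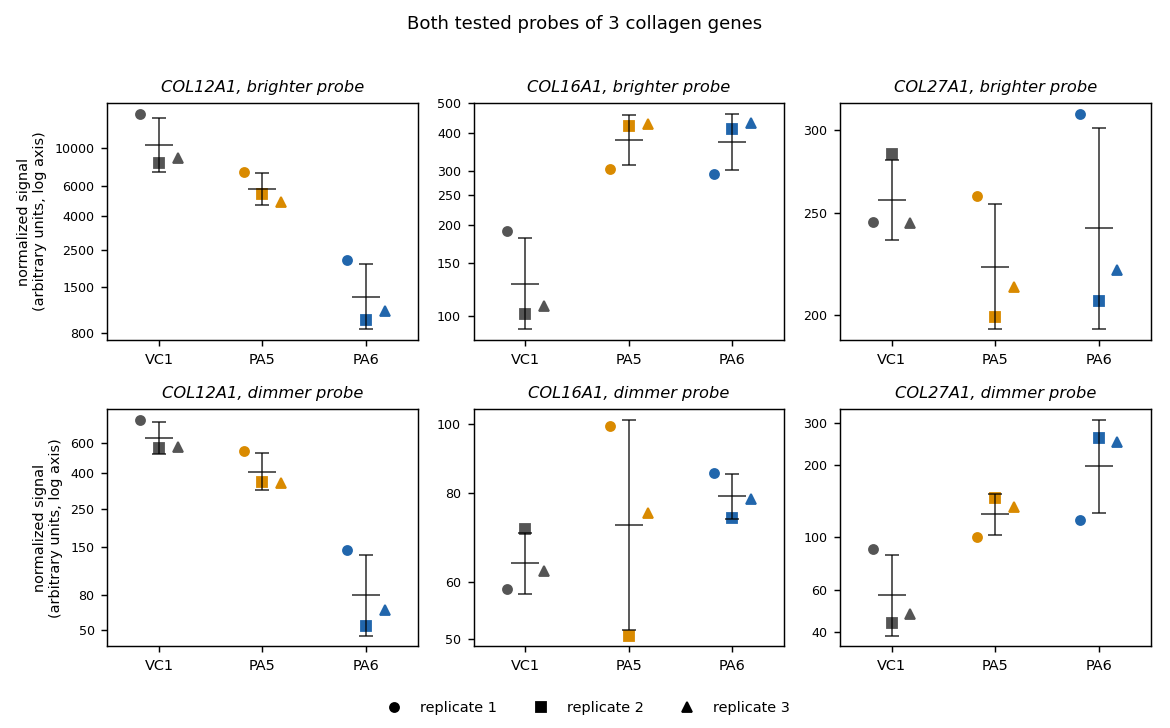
Normalized signal on each array, on log axes whose ranges differ, for the brighter (top) and the dimmer (bottom) tested probe of COL12A1, COL16A1 and COL27A1. Horizontal and vertical bars are the mean and 1 SD on the log2 scale; the probes of COL12A1 fall together, while COL16A1 rises on its brighter probe and COL27A1 on its dimmer one.

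Of the 4 basement membrane chains of type IV collagen tested, 0 were called in limma in any comparison, and COL4A6 alone had an unadjusted p-value under 0.05, higher in T47D-PA6 than in either other line. Over all genes tested, 10.9% were higher at that p-value in T47D-PA6 over T47D-VC1 and 10.4% in T47D-PA6 over T47D-PA5. The shares called higher and lower were 4.69% and 5.34% in T47D-PA6 over T47D-VC1. They were 1.37% and 0.298% in T47D-PA5 over T47D-VC1, and 3.65% and 6.06% between the lines with an insert. So few genes do not set type IV collagen apart from the rest. Genes of type IV collagen lie in pairs, head to head, so that the chains of a pair start from a common stretch between them. COL4A1 read 37.3, 27.2 and 21.9 in T47D-VC1, with log2 fold changes of -0.14 in T47D-PA6 (SE 0.18) and -0.34 in T47D-PA5 (SE 0.18). Its neighbor COL4A2 read 46.4, 46.0 and 42.1, with -0.05 (SE 0.29) and -0.12 (SE 0.29). COL4A5 read 791, 670 and 758 in T47D-VC1, 755, 848 and 773 in T47D-PA5, and 842, 689 and 728 in T47D-PA6, with 0.02 in T47D-PA6 (SE 0.12). Its neighbor COL4A6 read 29.7, 45.1 and 32.3 in T47D-VC1 and 90.1, 45.8 and 61.2 in T47D-PA6, and the arrays did not overlap. The log2 fold change of COL4A6 was 0.85 (SE 0.26, adjusted p = 0.0765), and it passed with the slide as a block.

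The other collagen genes tested were not called in any comparison. COL7A1, the anchoring fibril collagen that ties the basement membrane to the tissue below, read 629, 215 and 314 in T47D-VC1, 251, 335 and 315 in T47D-PA5, and 326, 305 and 303 in T47D-PA6. Its first control array was the highest of the 9, and T47D-PA6 over the control gave -0.17 on the log2 scale (SE 0.33, adjusted p = 0.801, limma). COL5A1, the partner of COL5A2, read 104 on replicate 1 of T47D-PA5 and 25.4 and 27.6 on the others, so its standard error was the largest of the 21, at 0.55. COL10A1, the collagen of growing cartilage, read 14.8 to 28.7 over all arrays. COL24A1, a fibril-forming chain, read 29.6, 30.2 and 19.1 in T47D-PA5 and 21.1, 13.2 and 13.1 in T47D-PA6, where 2 arrays were well above background. The log2 fold change of COL24A1 in T47D-PA6 over T47D-PA5 was -0.74 (SE 0.26, adjusted p = 0.117), and it passed without replicate 1 of T47D-PA6. COL24A1 entered the test through T47D-VC1 and T47D-PA5, where it was higher, so its lower value in T47D-PA6 depends on that filter. Over the 13 collagen genes called nowhere, log2 fold changes ran from -0.40 to 0.85 in T47D-PA6 over T47D-VC1 and from -0.34 to 0.50 in T47D-PA5 over T47D-VC1.

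The 250 bases upstream of the annotated starts are shown for COL12A1, which fell, and for COL16A1 and COL18A1, which rose in both lines. They are from RefSeq in build GRCh38.p14, not the build of the probes, and are written 5′ to 3′ along the gene's own strand. COL12A1 starts on the minus strand after chr6:75206054-75206303 and COL16A1 on the minus strand after chr1:31704018-31704267. COL18A1 has 2 annotated starts on the plus strand, after chr21:45404915-45405164 and chr21:45455272-45455521. The table held promoters for 32 of the 44 collagen genes. Capitals mark matches on either strand to 3 motifs, the TATA box (TATAAA), the CAAT box (CCAAT) and the GC box (GGGCGG), which do not overlap one another except for runs of the GC box. The window of COL12A1 held 1 GGGCGG, that of COL16A1 2, the first COL18A1 window 9, and the second 1 GGGCGG and 1 TATAAA. None of the 4 held CCAAT. COL21A1, which also rose in both lines, has 3 annotated starts, whose windows are not printed: 1 held a single GC box and the other 2 none, and none held the TATA or the CAAT box. Over the collagen windows of the table the GC box was found in 24 of 44. Over the 35114 upstream windows of that length, 42.6% held the GC box, 32% the CAAT box and 3763 windows the TATA box. Which start the cells used was not measured, and a match is a description of the letters only.
COL12A1: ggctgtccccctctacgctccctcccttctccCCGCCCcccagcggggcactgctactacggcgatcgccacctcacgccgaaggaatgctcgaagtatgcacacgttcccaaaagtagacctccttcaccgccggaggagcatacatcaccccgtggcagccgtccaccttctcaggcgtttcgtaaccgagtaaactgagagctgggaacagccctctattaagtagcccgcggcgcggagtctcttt
COL16A1: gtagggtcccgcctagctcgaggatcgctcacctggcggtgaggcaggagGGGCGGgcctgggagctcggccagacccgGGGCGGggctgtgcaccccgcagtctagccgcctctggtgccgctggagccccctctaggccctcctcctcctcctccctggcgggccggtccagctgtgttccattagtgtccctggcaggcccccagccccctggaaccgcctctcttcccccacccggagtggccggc
COL18A1, first start: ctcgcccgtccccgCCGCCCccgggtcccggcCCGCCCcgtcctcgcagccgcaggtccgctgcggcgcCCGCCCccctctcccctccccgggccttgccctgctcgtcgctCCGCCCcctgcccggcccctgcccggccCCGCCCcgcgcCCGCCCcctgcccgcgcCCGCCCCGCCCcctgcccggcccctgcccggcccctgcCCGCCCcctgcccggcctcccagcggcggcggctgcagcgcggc
COL18A1, second start: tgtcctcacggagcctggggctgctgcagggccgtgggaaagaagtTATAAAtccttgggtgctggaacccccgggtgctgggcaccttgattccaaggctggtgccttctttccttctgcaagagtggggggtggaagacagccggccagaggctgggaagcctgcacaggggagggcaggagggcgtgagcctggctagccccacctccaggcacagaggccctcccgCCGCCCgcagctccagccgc

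Genes whose products make, trim, bind or break down collagen were read from lists written with earlier results of these data known. Of 15 tested genes for synthesis and folding, 1 was called in T47D-PA6 over T47D-VC1, higher, beside 4.69% of all genes tested, and 0 in T47D-PA5 in limma, where 0 had an unadjusted p-value under 0.05. In T47D-PA5 the shares of all genes called were 1.37% higher and 0.298% lower. At that unadjusted p-value they were 8.7% higher and 6.88% lower. The gene called was PLOD3, an enzyme that hydroxylates and glycosylates lysines of collagen, which read 2899, 2881 and 2773 in T47D-VC1 and 4120, 4094 and 4184 in T47D-PA6, a log2 fold change of 0.54 (SE 0.09, adjusted p = 0.00903). SERPINH1, the collagen chaperone HSP47, was not called, at 0.18 (SE 0.10, adjusted p = 0.302). The median log2 fold change of the list was 0.21 in T47D-PA6 and 0.15 in T47D-PA5. Between T47D-PA6 and T47D-PA5, PLOD3 was higher (0.41, SE 0.09, adjusted p = 0.0245) and MIA3, which helps load procollagen for export and was named after its values were seen, was lower (-0.57, SE 0.14, adjusted p = 0.0376). Of all genes tested, 3.65% were called higher there and 6.06% lower.

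Of the genes for procollagen processing and crosslinking 4 of 13 were tested, and LOXL1, a lysyl oxidase that crosslinks matrix proteins, was called higher in T47D-PA6, 1 of 4 beside 4.69% of all genes. It read 13.7, 30.4 and 34.4 in T47D-VC1, where 2 arrays were well above background, and 41.7, 97.8 and 88.0 in T47D-PA6, a log2 fold change of 1.55 (SE 0.40, adjusted p = 0.0453, limma). LOXL1 entered the test through the arrays of T47D-PA5 and T47D-PA6, where it was high, so its count as higher depends on that filter. Of the genes for degradation and uptake 3 of 9 were tested and 1 was called higher in T47D-PA6, beside the same 4.69%. This was MRC2, the receptor that takes up collagen, which read 841, 769 and 679 in T47D-VC1 and 1722, 1474 and 1516 in T47D-PA6, a log2 fold change of 1.04 (SE 0.18, adjusted p = 0.0102). CTSK, a protease that cleaves collagen, was also named after its values were seen: it read 370, 669 and 631 in T47D-PA5 and 171, 176 and 187 in T47D-PA6, a log2 fold change of -1.60 between them (SE 0.21, adjusted p = 0.00495). In T47D-PA5 over T47D-VC1, 0 genes of these lists were called in limma, beside 1.37% of all genes higher and 0.298% lower. At an unadjusted p-value under 0.05 there were 5, all higher, beside 8.7% of all genes. There LOXL1 gave 1.39 (SE 0.40, adjusted p = 0.14) and MRC2 0.60 (SE 0.18, adjusted p = 0.148). Of the collagen receptors 7 of 10 were tested and 0 were called in any comparison in limma, with 2 at an unadjusted p-value under 0.05 in T47D-PA6 over T47D-VC1, both lower, 0 in T47D-PA5 over T47D-VC1 and 2 between the lines with an insert, both higher in T47D-PA6. Of these last, GP6 entered the test through T47D-PA6 alone, with 0 arrays of T47D-PA5 well above background. Over all genes tested, the shares at an unadjusted p-value under 0.05 were 10.9% higher and 15.7% lower in T47D-PA6 over T47D-VC1, and 10.4% higher and 14.5% lower in T47D-PA6 over T47D-PA5. The shares called were 4.69% and 5.34% in the first of these, and 3.65% and 6.06% in the second. DDR1, the collagen receptor kinase of epithelial cells, read 4322 to 5049 in T47D-VC1 and gave 0.08 in T47D-PA6 (SE 0.14, adjusted p = 0.768).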

How the data were processed

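RNA of 3 stable T47D lines was hybridized to SurePrint G3 Human Gene Expression v3 arrays, with 3 arrays a line, after labeling with a low-input one-color kit. For each array the authors deposited spot intensities from Feature Extraction, background-subtracted within the array; the file headers name version 10.7.1.1 and the submitters' processing notes 9.5.1.1. They also deposited a table of quantile-normalized intensities, whose log2 values correlated at 1 with those computed here. Scanning and background subtraction were not repeated.

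Outlier spots (46 to 117 an array) were left out, spots of a probe were averaged as log2 values, and arrays were quantile-normalized over 58201 probes. No collagen probe lost its value on an array. Gene names were updated from a RefSeq table. Symbols placed 31127 probes, accessions 3343 and synonyms 496, while 23235 kept the name in the files. Line differences came from limma 3.58.1 under R 4.3.3, in 1 fit (lmFit, eBayes) over 9 arrays with 6 residual degrees of freedom. Benjamini-Hochberg adjustment ran over all 20106 genes tested, with a threshold of 0.05. With 3 arrays against 3 the smallest two-sided exact permutation p is 0.1, so no such test was used. The number of arrays limits the precision. The fit was tested on simulated data.

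Collagen genes were named when called in any comparison, past the study's fold limits, or among the 5 with the highest mean signal in T47D-VC1; the rest are given in counts, ranges or values. Of the other lists the called genes of T47D-PA6 over T47D-VC1 were named. The members and lists were chosen with earlier results of these data known. There were 21 alternatives a comparison, 1 of them (the later scan run only) chosen after seeing the data. The other 20 varied the normalization, background correction, filter, block, prior variance, samples in the fit, probes of a gene and test, or left out an array.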

Additional observations from a re-analysis of the deposited data

Results flagged for a closer look

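COL6A6, a chain of type VI collagen that was too dim to be tested, gave a signal of 43.6 on replicate 3 of T47D-PA5, where it was well above background. The other arrays of that line read 2.61 and 2.57, and the highest control array read 2.62. It was noticed because a probe outside the comparisons rose above the control on a single array.

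COL12A1 and COL5A2 stood out because their effects over T47D-VC1 differed between the lines with an insert, as limma tests directly in T47D-PA6 over T47D-PA5. The difference of the effects was -2.12 for COL12A1 (adjusted p = 0.01) and -0.76 for COL5A2 (adjusted p = 0.0431) on the log2 scale.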

How the results depend on the processing

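Of the collagen genes tested, limma called 7 in T47D-PA6 over T47D-VC1, 4 in T47D-PA5 over T47D-VC1 and 2 in T47D-PA6 over T47D-PA5. Leaving out 1 array at a time gave 3 to 8, 2 to 5 and 1 to 3, and the fold limits gave 4 to 6 in each line in place of 5. Over all genes tested limma called 2017, 335 and 1952 in the main fit. With 1 array left out it called 698 to 2771, 100 to 593 and 713 to 2963 of all genes. With fewer arrays the spread is estimated from fewer values. The fewest collagen genes in T47D-PA6 over T47D-VC1 came without replicate 3 of T47D-VC1 (3) and without replicate 2 or 3 of T47D-PA6 (4 each). In the PA5 comparison 2 were called without replicate 2 or 3 of any line, and in T47D-PA6 over T47D-PA5 1 was called in the same cases. The methods' t-test, adjusted by Benjamini-Hochberg, called 1, 0 and 0 collagen genes, beside 432, 39 and 790 of all genes. With only T47D-PA5 and T47D-VC1 in the fit 2 collagen genes were called, beside 245 of all genes. The later scan run alone, replicates 2 and 3, gave 10, 8 and 7 collagen genes, beside 7423, 3984 and 7114 of all genes. The cause of these changes was not tested. With the slide as a block the collagen counts were 8, 5 and 2, beside 2290, 608 and 1956 of all genes. The replicate numbers were not taken to pair the arrays, as they are not stated to mark a shared culture. Deviations from the line means of same-numbered arrays correlated at 0.0995 to 0.337 over 9 pairs, and those of other arrays at -0.315 to 0.261 over 18. Every negative correlation set a replicate 1 against a replicate 2 or 3, arrays of another slide and scan run. The main fit had no block, so this difference stayed in its spread. With a replicate block 7, 3 and 2 collagen genes were called, beside 2617, 490 and 2427 of all genes. COL16A1 (adjusted p = 0.0563) and COL21A1 (0.0569) were lost and COL12A1 (0.0403) gained in T47D-PA5 over T47D-VC1, with no other collagen call changed. Another scaling of the arrays moved the median of all genes by under 0.1 on the log2 scale. In the comparisons that called them, collagen genes kept their direction in every alternative. For dim genes such as COL20A1, COL24A1 and COL28A1 the signal near background limits what can be seen.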

Other observations

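Collagen genes outside the tested set gave scattered signals. COL26A1 was well above background on 1 array of each line, COL15A1 on 2 arrays of T47D-VC1 and on none of the other lines, and COL9A1 on 1 array of T47D-VC1 and 2 of T47D-PA6. COL14A1 was above background on 1 array each of T47D-VC1 and T47D-PA5, COL8A2 on 1 array each of T47D-VC1 and T47D-PA6, and COL6A2 on 1 array of T47D-PA6. Replicate 1 of T47D-PA5 held the highest signal of its line for COL5A1 (104, against 25.4 and 27.6), COL4A2 (68.2, against 26.1 and 39.4) and COL5A2 (598, against 502 and 479).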
